A study of Mus musculus with 3 samples.

Results

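The genes described here encode thin filament and Z-disc proteins of striated muscle: the fast fiber troponins Tnnt3, Tnni2 and Tnnc2, their slow fiber counterparts Tnnt1, Tnni1 and Tnnc1, the skeletal actin Acta1, the alpha-actinins Actn2 and Actn3, and the tropomyosin Tpm2. They were taken by gene symbol, with earlier results of these data known, and are 10 of the 18193 genes measured. All probe sets that the platform annotation gives to 1 of these genes were taken, which makes 15 of 45037 probe sets. A probe set is a group of short probes against 1 transcript.

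The arrays carried pooled back skin RNA of male mice, with 1 array for each of 3 groups. KOE mice were Interleukin-10 knockout mice on a diet with 8% powdered eggshell membrane (pESM), KO mice were Interleukin-10 knockout mice on the AIN-93-based diet, and WT mice were C57BL/6J mice on the same AIN-93-based diet. The groups held 6 KOE, 7 KO and 5 WT mice, which were 4 weeks old when the 28 weeks of feeding began, and the dermal white adipose tissue was taken off the skin before extraction. The KO animals came from crosses of an Interleukin-10 knockout line with C57BL/6J females, and the sources used here do not say which of the mice were pooled. With a single pool per group the differences have no replicate check, so no p-value is given, and each statement compares arrays and not groups of mice. The KO array is shared by KO vs. WT and by KOE vs. KO, so a low or high KO signal enters both.

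In striated muscle, actin filaments are lined by tropomyosin, and a troponin complex on it responds to calcium. Troponin T ties the complex to tropomyosin, troponin I inhibits the actin and myosin interaction, and troponin C binds calcium and lifts that inhibition. Alpha-actinin crosslinks the actin filaments of neighboring sarcomeres at the Z-disc. Fast and slow fibers use different genes for each troponin subunit. The skin of mice has a thin sheet of striated muscle below it, the panniculus carnosus, which can be part of a back skin sample. In whole skin RNA, fewer muscle fibers and less of a transcript per fiber cannot be told apart.

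The values are Microarray Analysis Suite signals, which compare a probe set across arrays but not with other probe sets. Over all probe sets, signals had a median of 107.5 in KOE, 96.3 in KO and 116.0 in WT. The keratinocyte markers Krt10, Krt5, Krt14 and Krt1 had log2 fold changes of 0.06 to 0.29 for KO against WT, and of 0.05 to 0.31 for KOE against KO. The altered gene Il10 had signals of 401 in KOE, 679.9 in KO and 17.0 in WT. These signals do not check the knockout, since the part of the altered allele that the probe set reads was not tested. Differences were read with the cut-off of the study's methods, at least a 1.5-fold difference, with 1 or both of the signals at 40 or more. Where a gene had several probe sets, the one with the strongest mean signal stands for it unless another is named.

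The fast fiber troponins were several fold lower in KO than in WT, several fold above KO in KOE, and slightly above WT there. Tnnt3, fast troponin T, had signals of 2826 in KOE, 745 in KO and 2073 in WT. It was 2.78-fold lower in KO than in WT and 3.79-fold higher in KOE than in KO. Tnni2, fast troponin I and the inhibitory subunit, had signals of 4258 in KOE, 1014 in KO and 3222 in WT at its strongest probe set. The KO array was again the lowest, 3.18-fold lower than WT, and KOE was 4.20-fold higher than KO. Tnnc2, the calcium-binding subunit of fast fibers, had signals of 6291 in KOE, 1259 in KO and 4947 in WT. Of the 10 genes it had the lowest KO vs. WT ratio among those with a signal of at least 40, being 3.93-fold lower, and the highest KOE vs. KO ratio, 5.00. For all 3 subunits the KOE signal was 1.27- to 1.36-fold above WT, under the cut-off.

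Actn3, the alpha-actinin confined to fast fibers, followed the fast troponins. Its signals were 559.9 in KOE, 169 in KO and 550.4 in WT, which is 3.25-fold lower in KO than in WT and 3.31-fold higher in KOE than in KO. KOE and WT were nearly equal, with a ratio of 1.02. Acta1, the main actin of adult skeletal muscle in all fiber types, had signals of 9799 in KOE, 2497 in KO and 5093 in WT. It was 2.04-fold lower in KO than in WT, the smallest of the 5 differences, and 3.92-fold higher in KOE than in KO. Unlike the fast troponins and Actn3, Acta1 also passed the cut-off between KOE and WT, being 1.92-fold higher in KOE. Tnnt3, Tnni2, Tnnc2, Actn3 and Acta1 thus had the array order KOE, WT, KO from high to low, an order found for 10.6% of the 10730 genes whose signal reached 200 on any array.

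**Figure D1:**
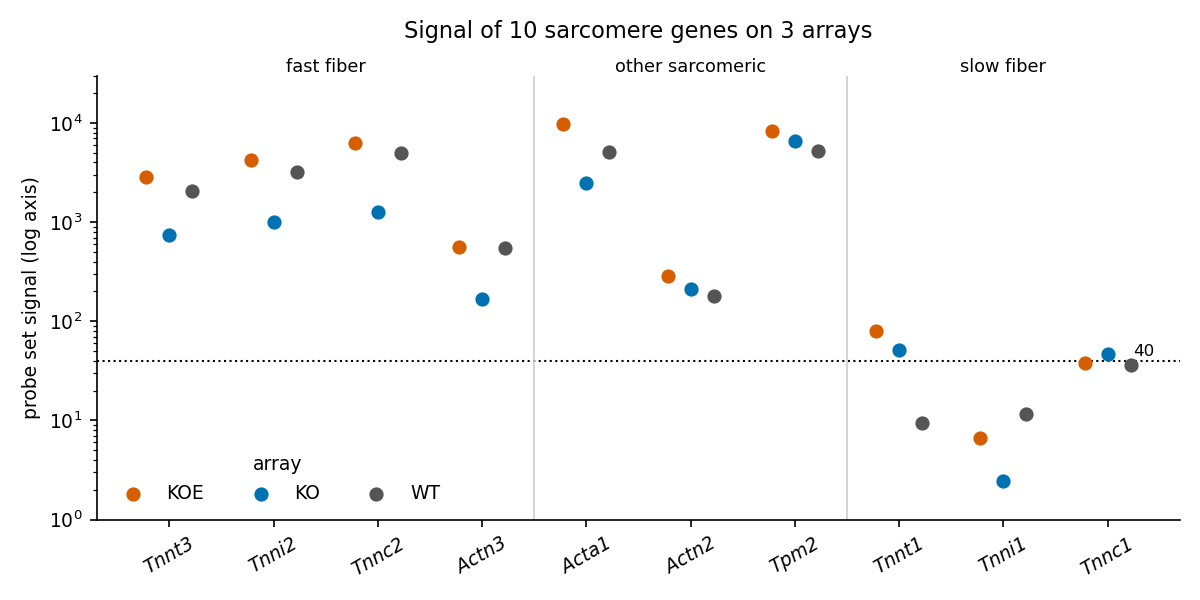
Signals of the 10 genes on the 3 arrays (log axis), each gene at its strongest probe set, 1 point per array of pooled RNA. The dotted line is the signal limit of 40. Tnnt3, Tnni2, Tnnc2, Actn3 and Acta1 have their lowest point in KO, and the slow troponins Tnnt1, Tnni1 and Tnnc1 lie near or under the limit.

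The slow troponins had little signal on any array. Tnnt1, slow troponin T, had signals of 79.4 in KOE, 50.9 in KO and 9.34 in WT, so that only the WT array lay under 40. KOE was 1.56-fold higher than KO. Against WT it passed the cut-off from both KO and KOE, but a ratio to a signal under 40 is uncertain, and with the WT signal set to 40 the ratios were 1.27 for KO and 1.99 for KOE. Tnni1, slow troponin I, had signals of 6.66 in KOE, 2.44 in KO and 11.7 in WT, all under 40, and no fold change is given for it. Tnnc1, the troponin C of slow fibers and of the heart, had signals of 38.0 in KOE, 46.6 in KO and 36.5 in WT. All 3 lay near the limit, and KO, the only 1 above 40, was 1.28-fold above WT. Myh7, the slow myosin heavy chain, was also under 40 on all arrays, with signals of 7.94 in KOE, 13.5 in KO and 12.4 in WT.

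Fast genes and their counterparts were compared by the difference of their log2 fold changes, fast minus other. The counterpart is a slow gene in the troponin pairs, while Actn2 is found in all fiber types. Actn3 and Actn2 are the only pair of the 4 in which both genes had signals of at least 40 on all 3 arrays. No pair of a fast and a slow gene therefore had such signals on all arrays. Actn3 minus Actn2 was −1.94 for KO vs. WT, 1.29 for KOE vs. KO and −0.65 for KOE vs. WT. For troponin T (Tnnt3 minus Tnnt1) the difference was 1.28 for KOE vs. KO, where both genes had signals of at least 40. Against WT, where Tnnt1 was under 40, it was −3.92 for KO and −2.64 for KOE, and with signals under 40 set to 40 it was −1.83 and −0.54. For troponin C (Tnnc2 minus Tnnc1) it was −2.33 between KO and WT and 2.61 between KOE and KO, or −2.19 and 2.54 with that floor.

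Troponin I gave no usable pair, since Tnni1 was under 40 on all arrays. As measured, Tnni2 minus Tnni1 was 0.60 between KO and WT and 0.62 between KOE and KO. With the floor Tnni1 has no change by construction, and the values of −1.67 and 2.07 are those of Tnni2 alone. The median over the 4 pairs was −2.13 between KO and WT, 1.29 between KOE and KO and −0.18 between KOE and WT as measured, and −1.88, 1.68 and −0.10 with the floor. All of these medians include the troponin I pair, and with the floor the KOE and WT signals of Tnnc1 are also set to 40. They therefore partly restate the fast genes and are no separate measure of fast against slow fibers.

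Actn2, the alpha-actinin found in all fiber types and in the heart, did not follow Actn3. Its signals were 289 in KOE, 214 in KO and 181 in WT. KO was 1.18-fold above WT and KOE 1.35-fold above KO, neither past the cut-off, and KOE was 1.59-fold above WT, past it. With 40 added to each signal that last difference had a log2 value of 0.57, under the cut-off.

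**Figure D2:**
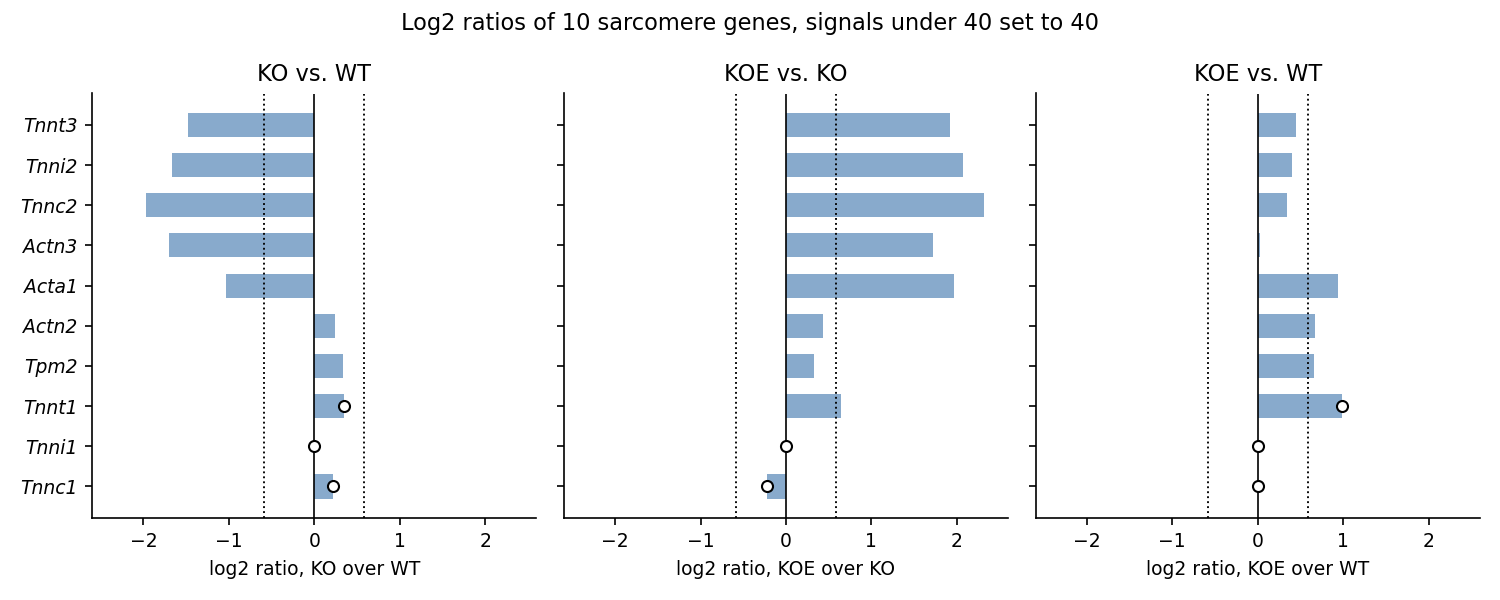
Log2 ratios of the 10 genes in the 3 comparisons, 1 per panel, with signals under 40 set to 40. Open points mark ratios in which at least 1 of the 2 signals was under 40, and dotted lines mark 1.5-fold. The 5 upper bars run to the left for KO vs. WT and to the right for KOE vs. KO, while Actn2, Tpm2 and the slow troponins stay between −0.22 and 0.64 in these 2 panels.

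Tpm2, the beta-tropomyosin of skeletal muscle that smooth muscle also makes, gave different pictures at its 4 probe sets. The strongest, 1419738_a_at, had signals of 8299.9 in KOE, 6633 in KO and 5255 in WT, and 1425028_a_at had 4875 in KOE, 3517 in KO and 2756 in WT. At both, KO lay above WT, by 1.26- and 1.28-fold, and KOE above KO, by 1.25- and 1.39-fold, all under the cut-off. The other 2 had the order of the fast troponins. Probe set 1449577_x_at had signals of 1747 in KOE, 664 in KO and 1298 in WT, which is 1.95-fold lower in KO than in WT and 2.63-fold higher in KOE than in KO. Probe set 1419739_at had 185 in KOE, 101 in KO and 169 in WT, 1.67-fold lower in KO than in WT and 1.82-fold higher in KOE than in KO. The order KOE, KO, WT of the 2 strong probe sets was that of Actn2 and Tnnt1 too, and 19.5% of the genes that reached 200 had it.

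The 4 log2 fold changes of Tpm2 spanned 1.32 in the KO vs. WT ratio and 1.07 in the KOE vs. KO ratio. Their SDs were 0.70 and 0.48. For comparison, the log2 fold changes of probe sets of the same gene varied with an SD of 0.35 (KO vs. WT) or 0.28 (KOE vs. KO) over 6055 genes with several probe sets at 40 or more on all arrays. The sign of KO vs. WT at each of the 4 was the same after scaling the arrays to a common median, by quantiles or by cyclic loess, although 1419739_at was then no longer past the cut-off. Which Tpm2 transcripts each probe set reads was not determined here, and the letters a and x in their names mark probe sets with probes shared between transcripts or genes. Tnni2 also had several probe sets, and those with signals of at least 40 had the same order. Probe set 1438609_x_at had signals of 1647 in KOE, 439 in KO and 1160.5 in WT, 2.65-fold lower in KO than in WT and 3.76-fold higher in KOE than in KO. The third, 1438608_at, lay under 40 on all arrays, with 21.3 in KOE, 3.26 in KO and 20.0 in WT.

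**Figure D3:**
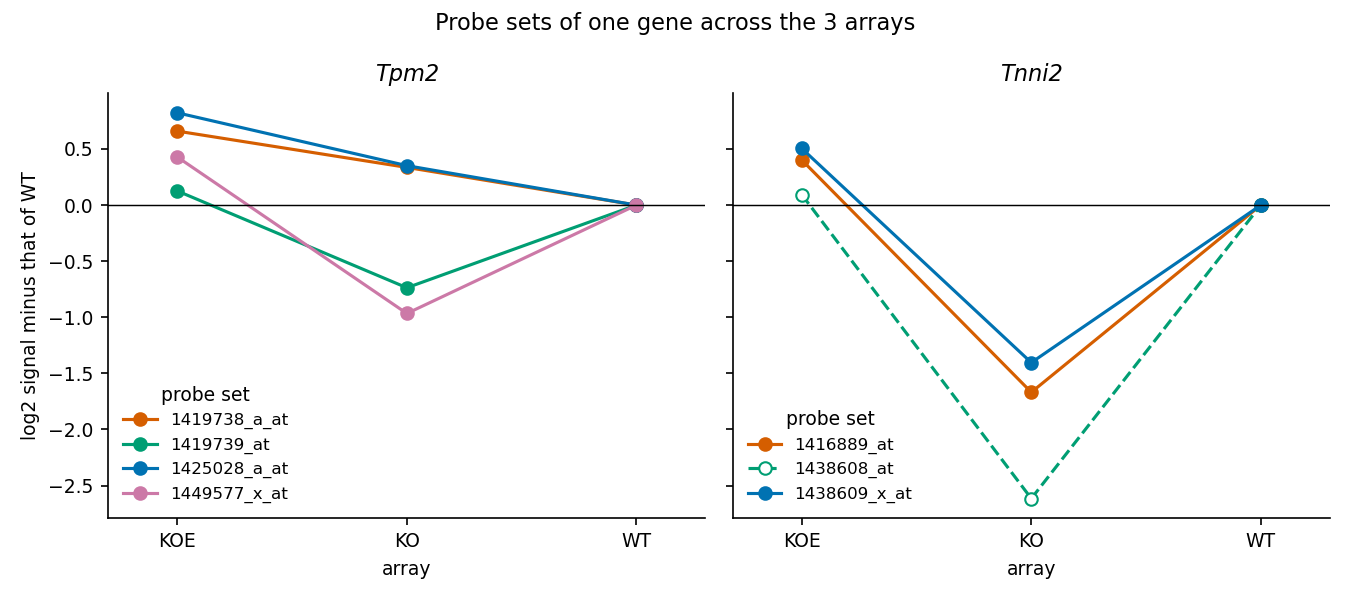
Log2 signal of each Tpm2 and Tnni2 probe set on the 3 arrays minus its WT value, with 1 line per probe set. Open points and a dashed line mark the Tnni2 probe set with all signals under 40. Both strong Tpm2 probe sets lie at 0.34 and 0.35 in KO, the other 2 at −0.74 and −0.97, and all Tnni2 probe sets are lowest in KO.

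Counted with the cut-off, KO was lower than WT for 5 of the 10 genes, against 11.6% of all genes. Tnnt1 was the only 1 of the 10 that was higher, against 8.70% of all genes, and at a signal limit of 100 it no longer counted. After scaling to a common median, which moves the median of all genes to log2 fold changes of 0.28 between KO and WT, −0.13 between KOE and KO and 0.17 between KOE and WT, 3 were higher and 5 lower in KO, the additions being Tpm2 and Tnnc1. Between KOE and KO, 6 of the 10 genes were higher in KOE, against 8.71% of all genes, and 0 were lower, against 4.28% of all genes. The sixth beside Tnnt3, Tnni2, Tnnc2, Actn3 and Acta1 was Tnnt1, which did not pass after any of the 3 scalings, and after quantile scaling Tnnc1 was lower, which makes 5 higher and 1 lower. Between KOE and WT, 4 were higher in KOE (Tnnt1, Acta1, Actn2 and Tpm2), against 10.1% of all genes, and 0 were lower, against 8.48%. At a fold limit of 2 this left Tnnt1 alone, and at a signal limit of 100 Tnnt1 no longer counted. Tpm2 lost this call after cyclic loess (log2 0.54), with the mean of its probe sets (0.51) and at its plain probe set (0.13).

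Among genes that reached 200 on 1 or both arrays, 9.91% were lower and 8.51% higher in KO against WT, 3.41% were higher and 2.48% lower in KOE against KO, and 7.28% were higher and 7.86% lower in KOE against WT. Tnnt3, Tnni2, Tnnc2, Actn3 and Acta1 were also called at that limit, in the first pair of comparisons, and Acta1, Actn2 and Tpm2 in the third. By probe set, 8 of 15 were lower and 1 was higher in KO than in WT, against 14.5% and 7.58% of all probe sets, and 9 were higher and 0 lower in KOE against KO, beside 10.5% and 4.29%. In KOE 5 probe sets were higher than in WT and 0 lower, beside 9.76% and 10.7%. Of the 15 probe sets, 11 had a signal of at least 40 on all arrays, 2 on 1 or 2 of them and 2 on none. The median log2 fold change of the 10 genes was −1.25 between KO and WT, 1.59 between KOE and KO and 0.42 between KOE and WT, beside 0.01, 0.03 and 0.06 over all genes. With signals under 40 set to 40, the medians were −0.51, 1.18 and 0.42, beside 0 over all genes.

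Promoter sequence is shown for 3 of these genes, which set a fast gene (Tnnc2) and the pan-fiber actin (Acta1), both lower in KO and higher in KOE, beside the slow troponin C (Tnnc1), which was near the signal limit. Each run is the 250 bases upstream of the start of the transcript, read 5′ to 3′ on the strand of the gene, from RefSeq on build GRCm38.p6. Acta1 is chr8:123894776-123895025 on the minus strand, Tnnc2 is chr2:164779735-164779984 on the minus strand and Tnnc1 is chr14:31208062-31208311 on the plus strand. Capitals mark matches to 5 motifs searched on both strands: the E-box CANNTG that myogenic factors bind, the M-CAT element CATTCC that TEAD factors bind, the TATA box TATAAA, the CArG box of serum response factor and the MEF2 site. The matches shown do not overlap each other.
Acta1: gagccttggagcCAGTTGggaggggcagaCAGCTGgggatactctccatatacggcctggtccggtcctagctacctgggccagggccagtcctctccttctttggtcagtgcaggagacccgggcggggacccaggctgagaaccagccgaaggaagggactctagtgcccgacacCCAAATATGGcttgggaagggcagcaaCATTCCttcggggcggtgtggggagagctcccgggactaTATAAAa
Tnnc2: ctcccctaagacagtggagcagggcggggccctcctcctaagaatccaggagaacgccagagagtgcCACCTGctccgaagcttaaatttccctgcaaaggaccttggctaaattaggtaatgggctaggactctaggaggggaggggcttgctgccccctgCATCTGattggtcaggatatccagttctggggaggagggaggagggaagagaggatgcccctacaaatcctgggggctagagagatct
Tnnc1: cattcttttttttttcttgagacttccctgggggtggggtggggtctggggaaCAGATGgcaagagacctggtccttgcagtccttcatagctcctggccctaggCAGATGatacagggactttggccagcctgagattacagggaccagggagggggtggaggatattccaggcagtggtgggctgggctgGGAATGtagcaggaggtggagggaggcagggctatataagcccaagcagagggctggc

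Acta1 held 1 match to the CArG box, 73 to 64 bases upstream of the start, which is the only such match among the entries of the 10 genes and which 1.47% of all 32851 promoter entries have. It also held an M-CAT element 46 to 41 bases upstream, 2 E-boxes and a TATA box match 7 to 2 bases upstream. Whether the start used is the one active in skin was not tested. Tnnc2 held 2 E-boxes and none of the other motifs. Tnnc1 held 2 E-boxes and an M-CAT element on the opposite strand, 58 to 53 bases upstream. E-boxes are found in 66.2% of all promoter entries and M-CAT elements in 12.6%, so these matches do not set the genes apart. Entries were found for 7 of the 10 genes. Tnnt1 held 1 E-box and a TATA box, Actn2 held 3 E-boxes, Tpm2 held 1 E-box, and the 2 starts of Tnni1 held 4 and 2 E-boxes. None of the 7 held the MEF2 site, which 2.92% of all entries have, and a TATA box is present in 12.4%. A match describes the letters only, and binding was not measured.

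Other genes of the thin filament and the Z-disc, 34 measured of 35 listed, were more divided than the fast troponins. For KO vs. WT 13 were lower and 7 higher past the cut-off, with a median log2 fold change of −0.28, and after scaling to a common median 7 were lower and 7 higher. For KOE vs. KO 17 were higher and 2 lower, with a median of 0.72, and for KOE vs. WT 16 were higher and 0 lower, with a median of 0.59. Smpx, a small cytoskeletal protein of striated muscle, had signals of 652 in KOE, 98.5 in KO and 378 in WT, a KOE vs. KO ratio of 6.62. Klhl40, which stabilizes thin filament proteins, had 95.4 in KOE, 15.5 in KO and 57.7 in WT, with KO under 40. Tpm1, the alpha-tropomyosin of fast fibers and other muscle, had 5820.0 in KOE, 3534 in KO and 6198 in WT, which is 1.75-fold lower in KO than in WT and 1.65-fold higher in KOE than in KO. Tpm3, whose products serve slow fibers and non-muscle cells, had 6378 in KOE, 6341 in KO and 5494 in WT, and stayed under the cut-off.

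Genes of the same filaments outside the sarcomere differed little. None of the 11 actins, actinins, tropomyosins, capping proteins and actin regulators of non-muscle cells was past the cut-off in any comparison, with medians of 0.09 between KO and WT, 0.04 between KOE and KO and 0.14 between KOE and WT, but after scaling to a common median Tpm4 and Tmod3 were higher in KO than in WT. Actb, cytoplasmic beta-actin, had signals of 25211 in KOE, 24380.1 in KO and 22716 in WT. Actg1, cytoplasmic gamma-actin, had 24290.3 in KOE, 23598 in KO and 22238 in WT. Actn4, a non-muscle alpha-actinin, had a KOE vs. KO ratio of 1.10, and Capza1, which caps actin filaments, was 1.19-fold lower in KOE than in KO.

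Fast fiber genes outside the thin filament went the same way as the fast troponins. Of 13 measured, KO was lower than WT for 10 and higher for 1, with a median log2 fold change of −1.94, and KOE was higher than KO for 11 and lower for 0, with a median of 2.20. Between KOE and WT 3 were higher and 0 lower, with a median of 0.27. Myh4, the fastest myosin heavy chain, had signals of 3926 in KOE, 217 in KO and 4309 in WT, and Myl1, a fast alkali light chain, had 5735 in KOE, 411 in KO and 4753 in WT. Both had a larger difference than any fast troponin in each comparison with the KO array, but not between KOE and WT, where their log2 fold changes were −0.13 and 0.27. Aldoa, a glycolytic enzyme also made by other cells, had 13375 in KOE, 10659 in KO and 13377 in WT, under the cut-off. The exception in KO was Myh2, the heavy chain of an intermediate fast fiber type, which was above WT with signals of 296 in KOE, 312 in KO and 178 in WT. Myh1, another fast heavy chain, had 4804 in KOE, 2779 in KO and 2229.6 in WT, and it too was called higher in KO than WT after scaling to a common median.

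Slow fiber genes outside the thin filament were mixed. Of 12 measured, KO was lower than WT for 4 and higher for 1, with a median log2 value of −0.04, or 0.06 to 0.23 after the 3 scalings, and KOE was higher than KO for 5 and lower for 0, with a median of 0.44. Between KOE and WT 5 were higher and 1 was lower, with a median of 0.63. The 1 lower was Myl3, with signals of 27.7 in KOE, 35.5 in KO and 41.7 in WT, near or under the limit. Myl2 was under 40 on all arrays, with 22.6 in KOE, 31.4 in KO and 3.98 in WT, and so was Myh7. The 4 genes lower in KO than in WT were Mb, Csrp3, Ckmt2 and Fabp3. Mb, myoglobin of oxidative fibers, had signals of 1127 in KOE, 162 in KO and 633 in WT. Ckmt2, the mitochondrial creatine kinase of muscle, had 309 in KOE, 72.7 in KO and 210.1 in WT. These lay with the fast troponins, while Mybpc1, the slow myosin-binding protein C, had 947 in KOE, 692 in KO and 577 in WT, an order like that of Actn2. Atp2a2, a calcium pump made by slow muscle and many other cells, had 6390 in KOE, 5999 in KO and 6372 in WT.

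**Figure D4:**
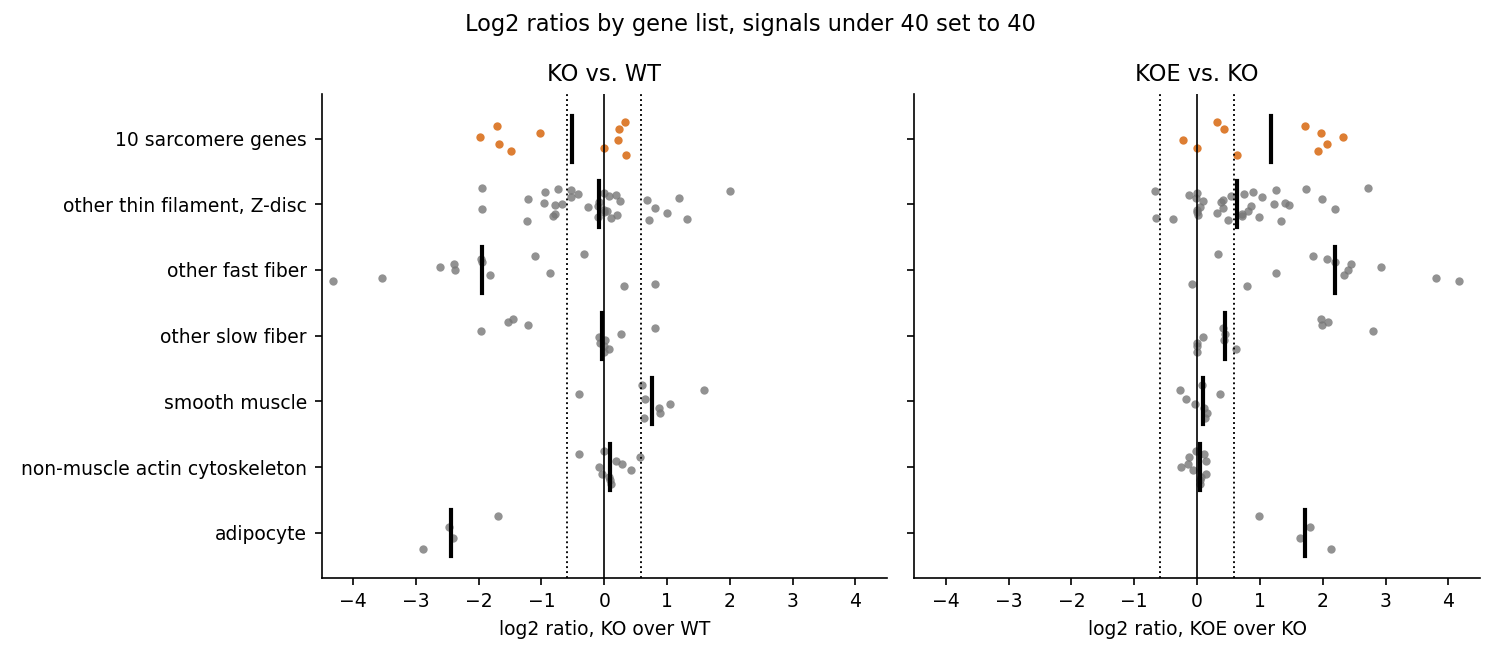
Log2 ratios for KO vs. WT and KOE vs. KO by gene list, with signals under 40 set to 40. Each point is a gene, each black bar is the median of its list and dotted lines mark 1.5-fold. The fast fiber list lies lowest in KO vs. WT among the muscle lists, the smooth muscle list has 7 of 8 genes past the cut-off to the right in KO vs. WT, and the non-muscle list lies close to 0.

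Markers of other cell types moved with some of these genes. For all 4 adipocyte markers measured, KO was called lower than WT and KOE higher than KO, with medians of −2.65 and 1.88. Their summed signal was 11029 in KOE, 5093 in KO and 18017 in WT. Most of it was Fabp4, with 9406 in KOE, 4731 in KO and 15268 in WT. Such sums follow the strongest probe sets of a list and do not measure cell content. Lep, the fat cell hormone leptin, was at 139 in KOE, 4.02 in KO and 221 in WT. Against WT the 4 adipocyte markers were lower in KOE, with a median of −0.73, whereas Acta1 was higher. Adipocyte markers share the KO low of the fast troponins, and their part in the signals of Acta1 and the fast troponins was not tested.

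Of 4 dermal fibroblast markers, Col1a1, a chain of type I collagen, was called lower in KO than in WT and higher in KOE than in KO. It had signals of 16038 in KOE, 5880.4 in KO and 16664 in WT, the same KO low as the fast troponins, being 2.83-fold lower in KO than in WT and 2.73-fold higher in KOE than in KO. The other 3 fibroblast markers were not past the cut-off in any comparison. Col3a1 came close to it, being 1.47-fold lower in KO than in WT and 1.47-fold higher in KOE than in KO. After quantile or cyclic loess scaling Col3a1 was called lower in KO than in WT, while Dcn and Lum were not called after any scaling. In the hair follicle list all 5 genes were lower in KO and in KOE than in WT. Their summed signal was 351 in KOE, 508 in KO and 101024 in WT, and in KO they were 87.3-fold (Tchh, trichohyalin) to 619-fold (Krt25, an inner root sheath keratin) lower than in WT. Between KOE and KO 3 of the 5 were called lower and 0 higher, unlike the fast troponins. In these 3, Krt25, Krt27 and Krt71, the KOE signals were 21.4, 14.4 and 28.2, all under 40, so the size of the difference is uncertain. With signals under 40 set to 40, the KOE vs. KO median of the 5 genes was −0.37, against −1.53 as measured. The part of the fibroblast and hair follicle content in the signals of the 10 genes was not tested.

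Most smooth muscle markers lay above WT in KO and in KOE, as the strong Tpm2 probe sets did. Of 8, KO was above WT for 7 and KOE above WT for 6, with medians of 0.76 and 0.86, and 0 were called between KOE and KO, with a median of 0.09. After quantile scaling Tagln was no longer called for KO vs. WT, and after cyclic loess neither Tagln nor Acta2 was. Unlike most of these markers, the strong Tpm2 probe sets were under the cut-off between KO and WT before scaling. Cnn1, Tagln and Lmod1 were highest in KO and Smtn in WT, which is not the order of those probe sets. The summed signal of the 8 markers, largely that of Acta2, was 27161 in KOE, 25853 in KO and 16602 in WT. Acta2, smooth muscle actin, had 15283 in KOE, 14036 in KO and 9096 in WT, and Lmod1, a smooth muscle leiomodin, had 207 in KOE, 250.1 in KO and 83.2 in WT. The part of smooth muscle in the Tpm2 signals was not tested. The summed signal of 10 skeletal muscle markers was 23264 in KOE, 5576 in KO and 17220 in WT, with medians of −1.60 between KO and WT, 1.99 between KOE and KO and 0.40 between KOE and WT. Past the cut-off, 7 of them lay below WT and 1 above WT in KO, and 8 lay above KO and 4 above WT in KOE. Most of these markers also stand in the fast or slow fiber lists.

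The cardiac genes were divided. Of 8, KO was above WT for 1 and below for 3, with a median of −0.83. The 1 above was Tnnt2, cardiac troponin T, with 609 in KOE, 490 in KO and 244 in WT, which was 2.00-fold higher in KO than in WT. The 3 below were Actc1, cardiac actin, with 92.8 in KOE, 56.6 in KO and 97.0 in WT, the natriuretic peptide gene Nppb with 101 in KOE, 62.3 in KO and 114 in WT, and Mybpc3, the cardiac myosin-binding protein C, with 104 in KOE, 28.8 in KO and 85.8 in WT. KOE was above KO for 4, with a median of 0.51, and above WT for 2, with a median of 0.01. With signals under 40 set to 40, these medians were 0.00, 0.16 and 0.00. The 4 above KO were Actc1, Nppa, Nppb and Mybpc3. Of these, Nppa (40.2 in KOE, 3.63 in KO) and Mybpc3 had a KO signal under 40. After each of the 3 scalings only Mybpc3 was still called above KO in KOE, and only Tnnt2 above WT. Actc1 was then no longer called lower in KO than in WT. The heart myosin Myh6 was at 1.95 in KOE, 2.92 in KO and 13.2 in WT. Of 16 measured myogenic regulators and fetal muscle genes, KO was above WT for 1 and below for 4, with a median of 0.03. KOE was above KO for 2, with a median of 0.19, and above WT for 1, with a median of 0.22. Of all genes, 8.70% were higher and 11.6% lower in KO against WT. In KOE, 8.71% of all genes were higher than in KO and 10.1% higher than in WT. The 2 above KO were Myf6 and Myod1, both with a KO signal under 40. With signals under 40 set to 40, the medians of this list were 0, 0.001 and 0. Myf6, a myogenic factor of mature fibers, had 59.8 in KOE, 16.8 in KO and 45.0 in WT, and Myod1, a factor of muscle precursors, had 52.5 in KOE, 31.2 in KO and 60.9 in WT. Mef2a, which binds the MEF2 site, had 4094 in KOE, 3922 in KO and 2958 in WT.

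The 10 genes share no single pattern, since 5 had the order KOE, WT, KO and the others did not. Genes nearest to their median over the log2 fold changes of KO vs. WT and KOE vs. KO were searched among 10723 other genes that reached a signal of 200 on any array. The median used, −1.25 and 1.59, was taken without a floor and so includes Tnni1. The nearest were Emid1, at a distance of 0.01, Wfdc12 at 0.08, Cox8b at 0.10, Igdcc4 at 0.12 and Ppp1r3c at 0.21, followed by Pla2r1, Tcea3, Thoc2l, Neb and Nrep at 0.22 to 0.28. Of these, Neb, the nebulin that spans the thin filament, had signals of 285 in KOE, 112 in KO and 262 in WT. Cox8b, a respiratory chain subunit of muscle and brown fat, had 1211 in KOE, 420.0 in KO and 1058 in WT. With signals under 40 set to 40 the median was −0.51 and 1.18, and 0 of the 10 nearest genes stayed among the nearest 10. Both coordinates share the KO array.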

How the data were processed

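Back skin RNA was pooled within each group (250 ng, 1 pool per group) and hybridised to an Affymetrix mouse expression array. The deposited values are linear probe set intensities, made by the authors from the scanner files in R with the Affymetrix Microarray Analysis Suite. Each array was checked to have a 2% trimmed mean of 500. Scanner files and detection calls were not used here. Control probe sets (64 of 45101) were left out. The platform annotation gave 1 gene to 34945 probe sets and several to 932, left 9160 unnamed, and was updated by gene identifier for 34741. No probe set with several genes named a member.

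Ratios were taken from the deposited intensities with no further scaling. A gene or probe set was called at 1.5-fold or more with an intensity of 40 or more on 1 or both arrays, since the methods leave that array unnamed. A single pool per group allows no test, and the depth of an array is limited by its number. The spread between probe sets of a gene on the same arrays is the only spread available. It also holds differences between the transcripts they read, and an error shared by a whole array or pool does not enter it. The 10 members, 13 other gene lists and the tests were chosen with earlier results of these data known. The text names all members, the 2 genes with the highest mean signal and the 2 with the largest KOE vs. KO difference of each list as far as they bear on a result, and the 10 most alike genes. Myh1, Myh2, Myh6, Myh7, Myl2, Myl3, Csrp3, Fabp3, Cnn1, Krt14, Tpm4, Tmod3 and Actc1 were named after their values were seen. Many genes stand in several lists, so the counts of the lists are not independent. The skeletal muscle markers Myl1, Mylpf, Myh4, Myh1, Myh2, Mb and Myh7 are also fast or slow fiber genes. Myoz1, Myoz2, Csrp3, Tnnt2, Tnni3 and Actc1 are also among the thin filament and Z-disc genes, and Actb is also a reference gene. For keratinocytes (4 genes) and common reference genes (6 measured of 8) 0 passed in any comparison.

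The 11 alternatives changed the signal limit, the fold limit, the scaling (common median, quantile, cyclic loess over 3 iterations at a span of 0.7), a floor or offset of 40 and the probe sets used. The scalings were extended to all lists and to the Tpm2 probe sets, and the floor to the search for like genes, after seeing the data. The calling step was tested on simulated data. Computations used R 4.3.3 (limma 3.58.1) and Python 3.11.15 (numpy 2.4.6, pandas 2.3.3).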

Additional observations from a re-analysis of the deposited data

How the results depend on the processing

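Tnnt3, Tnni2, Tnnc2, Actn3 and Acta1 kept their KO vs. WT and KOE vs. KO calls in each of the 11 alternatives that could be run for them, and no call of the 10 genes as reported reversed. Tpm2, not called between KO and WT, was called higher in KO after scaling to a common median (0.61) and lower in KO at its plain probe set (−0.74). Tnnc2, for example, ranged over log2 values of −2.09 to −1.71 (KO vs. WT) and 2.16 to 2.34 (KOE vs. KO), and Acta1 over −1.16 to −0.76 and 1.81 to 2.00. With a fold limit of 2, the genes past the cut-off between KOE and WT numbered 1 (Tnnt1) in place of 4, without Acta1, Actn2 and Tpm2, and the probe sets 1 in place of 5. With 40 added to each signal the median log2 fold change of the 10 genes was −0.65 between KO and WT and 0.96 between KOE and KO, and the KOE vs. KO median over the 4 pairs was 1.68, against 1.29 as measured. With signals under 40 set to 40 these were −0.51, 1.18 and 1.68. Both settings pull genes with signals under 40 toward 0, and the medians over the 4 pairs include the troponin I pair, which was not usable. Probe sets with neither an a nor an x in the name left 6 genes and 2 pairs, for which the KOE vs. KO median was 1.29, the pair median was 1.95, and 1 gene passed between KOE and WT. Tpm2 at the plain probe set alone had −0.74 between KO and WT, 0.86 between KOE and KO and 0.13 between KOE and WT, and Tnnt1 for KOE vs. KO had 0.48 after median, 0.43 after quantile and 0.34 after loess scaling, each of these 3 under the cut-off. Signals near 40, such as those of Tnnc1, limit what can be read of the slow troponins. No paired analysis was possible because each group had a single array.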
